A study of Mus musculus with 18 samples.

Results

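Joins that linked 1 RAG-cut end to scattered sites of the mouse genome with extra bases between the partners were examined across 12 translocation-sequencing libraries. Members were chosen by measured values: a prey alignment on neither the substrate nor chromosome 6, fewer than 3 telomere hexamers (TTAGGG or CCCTAA, on either strand) in the prey, a position outside 5 fixed windows on chromosomes 2, 3, 4, 5 and 7, and at least 1 read base between the bait and prey alignments. This gave 2386 members among 5701 dispersed junctions (41.9%) and 30937 junctions in all. The bait is the known substrate end from which each read starts, and the prey is the sequence joined to it. Insertion itself chose the members, so the share of joins with insertions is given as a description. Its tests entered the adjustment over 6 measures and the counts of results, but are not read here.

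The cells were v-abl-transformed B cells of strain 129 mice, in which a viral Abl kinase holds precursor B cells in cycle, with a stably integrated pMX-INV substrate. The libraries covered CtIP A/A DNA-PKcs -/-, DNA-PKcs -/-, CtIP A/A and wild-type cells, each with 2 G2-arrested libraries and 1 G1-arrested library. G1 arrest used STI571, an Abl inhibitor, at 3 µM for 48 or 72 h; for G2 arrest, 24 h of STI571 was followed by the CDK1 inhibitor RO3306 at 10 µM for 48 h. CtIP promotes resection of broken ends, and A/A denotes mutation of the ATM/ATR target site that the study addresses. The labels do not say how many lines or cultures stood behind a genotype, so genotype cannot be told apart from line, and p-values measure only the spread between libraries, which may be technical. Libraries held 289 to 7068 junctions and 38 to 691 members. The 6 samples with I-PpoI breaks are not analysed here, and DNA junctions gave no markers against which the cell type could be checked.

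RAG cuts beside a recombination signal, whose heptamer opens with CAC, and leaves a blunt signal end and a coding end closed as a hairpin. DNA-PKcs activates the Artemis nuclease, which opens the hairpin, and off-centre opening leaves palindromic (P) bases. Polymerases and, in lymphoid cells, terminal transferase can add further bases before ligation, so inserted bases record how an end was opened and filled. RAG can also cut cryptic signals elsewhere in the genome, most often where CAC is followed by a weak match to the rest of the signal.

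The sequences below were read from members of the G1 libraries and are examples of such joins, not typical ones. For each genotype and length class they had the longest prey that equalled the reference throughout. Capitals are inserted bases and lower case is the opening 60 bases of the prey, 5′ to 3′ on the strand named (mm10, read from GRCm38). The preys lay at chr9:64856841-64856900 (plus) in an intron of Dennd4a, which encodes an exchange factor for Rab GTPases, at chr11:75468188-75468247 (plus) in an exon of Tlcd2, at chr16:19200236-19200295 (plus) within the Igl light-chain locus, at chr13:52568154-52568213 (plus) outside genes, at chr1:53774246-53774305 (plus) in an intron of Stk17b, a kinase of lymphocytes, at chr10:125417218-125417277 (plus) outside genes, at chr1:127379995-127380054 (minus) in an intron of Mgat5, which branches N-glycans, and at chr2:83398004-83398063 (plus) outside genes.
CtIP A/A DNA-PKcs -/-, 3 bp inserted, Dennd4a: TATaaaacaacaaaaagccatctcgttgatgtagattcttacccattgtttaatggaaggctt
CtIP A/A DNA-PKcs -/-, 5 bp inserted, Tlcd2: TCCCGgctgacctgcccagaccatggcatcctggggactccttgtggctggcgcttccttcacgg
DNA-PKcs -/-, 2 bp inserted, Igl locus: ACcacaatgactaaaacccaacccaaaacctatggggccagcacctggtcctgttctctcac
CtIP A/A, 1 bp inserted, chromosome 13: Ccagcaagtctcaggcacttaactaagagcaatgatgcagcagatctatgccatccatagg
CtIP A/A, 4 bp inserted, Stk17b: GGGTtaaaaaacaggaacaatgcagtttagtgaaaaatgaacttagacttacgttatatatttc
wild type, 2 bp inserted, chromosome 10: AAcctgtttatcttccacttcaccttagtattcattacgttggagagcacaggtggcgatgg
wild type, 4 bp inserted, Mgat5: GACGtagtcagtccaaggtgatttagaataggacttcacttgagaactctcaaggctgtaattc
wild type, 16 bp inserted, chromosome 2: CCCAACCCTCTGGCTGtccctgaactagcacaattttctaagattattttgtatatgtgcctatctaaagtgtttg
The Igl prey opens with CACAATG, a heptamer-like run at the break itself. The 4 inserted bases at Mgat5 belong to a palindrome of 6 bases that began within the aligned bait end. The Igl prey counted as telomere-like through a stretch further along it. Counted from the most frequent bait end, bait loss in the order shown was 89, 125, 130, 89, 130, 144, -6 and -2 bp. Negative values mean that the bait ran past that end. Among all members with ordinary genome prey, a class described below, only 20.4% lost more than 20 bp. The other members picked by the same rule are not shown. In 3 of them the inserted bases came from an amplification primer or followed the substrate.

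The prey sequences fell into 5 classes, and the name "dispersed translocation" fitted only part of them. Prey made almost entirely of C and T (at least 85%) came to 746 members. Prey made almost entirely of A and G (at most 15% C and T) came to 63, and telomere-like prey to 738. Telomere-like means an 18-base stretch, within the inserted bases and prey read together, with at most 4 mismatches to the telomere repeat. A further 48 carried 8 or more bases of the substrate's partner coding end within the insertion. The remaining 791 members, 33.2% of all, had ordinary genome prey, and 611 of them had a prey whose first 26 bases occurred once in the genome. These classes were drawn after the values had been seen, so the values within them are descriptions, with no test. Inserted bases took part in the telomere-like and partner-end calls. Insertion shares, lengths and base make-up among the remaining members were therefore partly shaped by those calls.

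**Figure D1:**
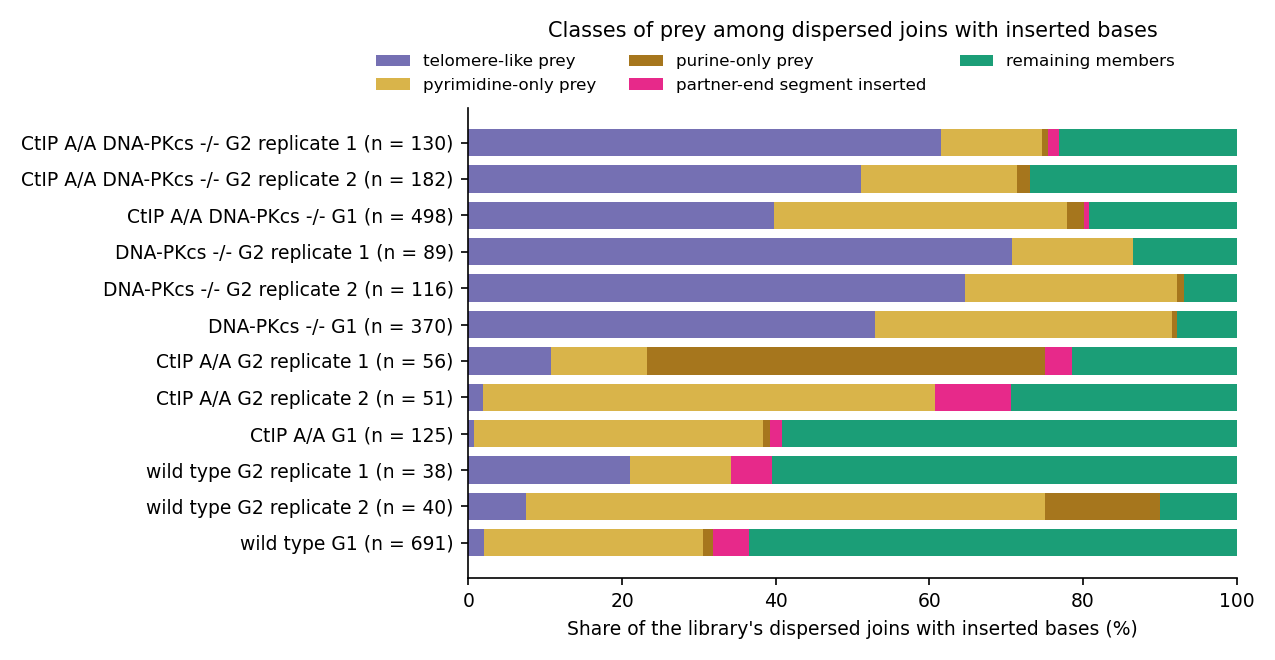
Share of each library's members (x axis, %) in the 5 prey classes, with 1 bar per library and n the number of members. Telomere-like prey fills 39.8% to 70.8% of the bars of libraries without DNA-PKcs and 0.800% to 21.1% of those with it, while 1 library (CtIP A/A G2 replicate 1) stands out for prey of A and G.

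Most reads of the C-and-T class could be followed further along the bait. Of 742 such members that could be assessed, 596 matched the uninterrupted bait at 75% or more of the 20 bases after the called bait end once A and G were both written as T, against 36 of 179 assessable remaining members. Where the bait had G these reads showed T in 82.2% of calls, and where it had A they showed T in 65.5% and C in 21.5%. At bait C and T the calls were mostly right, with 86.5% C and 90.2% T. The first 26 prey bases had no exact copy in the genome for 618 of the 746 and 1 copy for 100, the prey equalled the reference in 57, and the bait ended a median of 117 bp before the most frequent bait end. The class took 12.5% to 15.7% of members in the 4 libraries of sequencing run 1 and 20.3% to 67.5% in the 8 libraries of run 2, with no overlap between runs. The purine class had 29 of its 63 members in CtIP A/A G2 replicate 1, where they made up 51.8% of the library's members.

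Telomere-like members came mostly from cells without DNA-PKcs. Libraries without it held 705 of the 738, beside 1385 of all 2386 members. Telomere-like prey made up 61.5%, 51.1% and 39.8% of members in the CtIP A/A DNA-PKcs -/- libraries (G2 replicates 1 and 2, then G1). It made up 70.8%, 64.7% and 53.0% in the DNA-PKcs -/- libraries. In cells with DNA-PKcs the shares were 10.7%, 1.96% and 0.800% in CtIP A/A and 21.1%, 7.50% and 2.03% in wild type, in the same library order. Over all junctions of a library, the counts were 80 of 4170, 93 of 2841 and 198 of 7068 in CtIP A/A DNA-PKcs -/-. They were 63 of 3663, 75 of 2381 and 196 of 5042 in DNA-PKcs -/-. With DNA-PKcs they were 6 of 535, 1 of 586 and 1 of 834 in CtIP A/A and 8 of 535, 3 of 289 and 14 of 2993 in wild type. The telomere-like members themselves, as distinct from their prey class, were not tested. Their prey was short, with a median of 30 bp, their median insertion was 4 bp, and their inserted bases were 44.7% C and 28.5% A. Inserted bases were part of the stretch that defined this class, so their make-up was partly set by that choice. They stood near the rule's limit: 536 members had 2 hexamers, and 557 gapped genome junctions that were left out had exactly 3. Whether a telomere or an internal repeat was joined cannot be told apart from these reads, and 382 of the 738 had no exact copy of their first 26 bases in the assembly.

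The 48 members with a partner-end segment had insertions of 8 to 25 bp with a median of 14 bp. Cells without DNA-PKcs gave 5 of them and cells with it gave 43, of which 32 were from wild-type G1. The bait end was lost by more than 20 bp in only 1 of them. In 40 of the 48 the prey opened, within 4 bases, with a run of 5 or more C, against 16 of the 791 remaining members. The partner coding end itself holds such a run, so where the partner segment stopped and the genome began was uncertain in these reads.

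**Figure D2:**
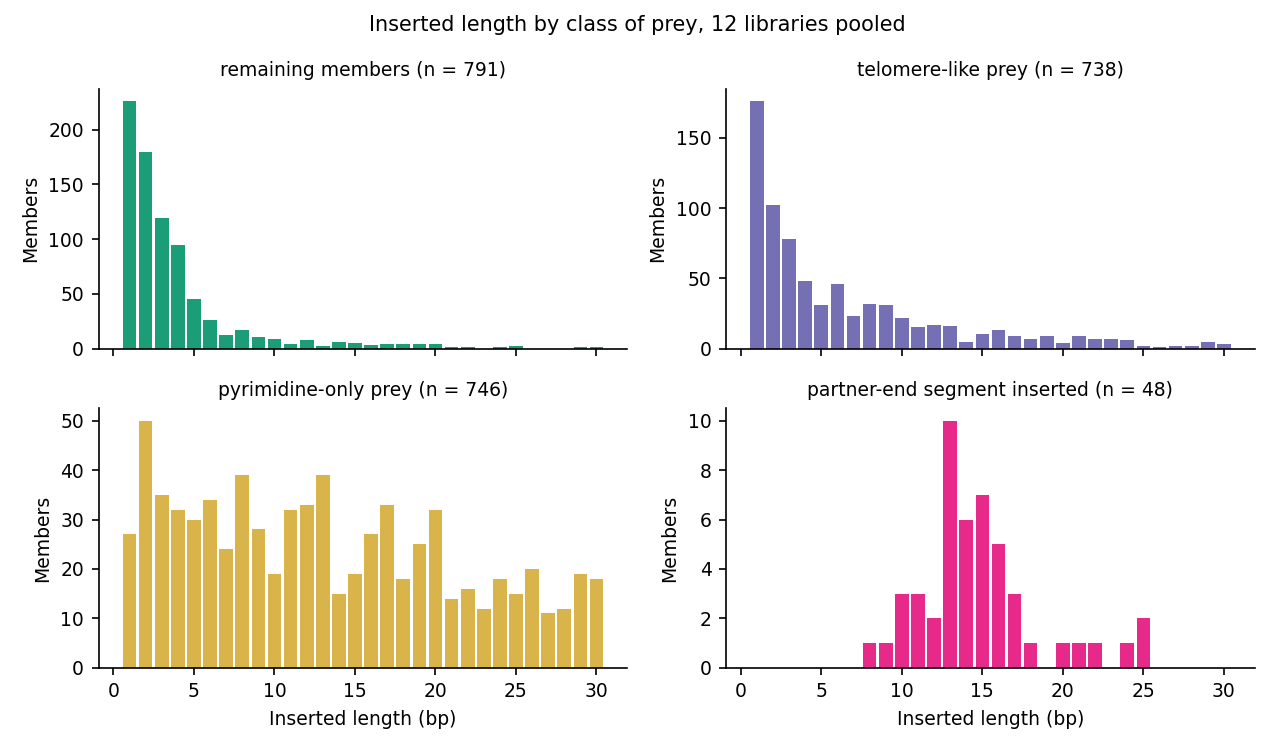
Number of members (y axis) at each inserted length in bp (x axis), all 12 libraries pooled, in 4 of the prey classes. The remaining members fall off steeply from 226 with 1 bp to 180 with 2 bp and 119 with 3 bp, while pyrimidine-only prey declines more slowly and reaches out to 30 bp.

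Among the remaining members insertions were short. The median was 2 bp, 226 members had 1 inserted base, 180 had 2 and 119 had 3, and 51 exceeded 10 bp. The longest was 30 bp, which was also the largest gap in all 30937 junctions. At the rule's lower limit, 435 of the 2386 members had a gap of 1 base and 795 dispersed junctions had a gap of 0. Telomere-like prey shared the steep fall from 1 bp, whereas the C-and-T class had a median of 12 bp.

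Compared with coding joins that carried inserted bases, the whole set of members had longer insertions. The median inserted length averaged 5.92 bp for members and 2.58 bp for inserted coding joins over the 12 libraries, a difference of 3.33 bp (95% interval 1.62 to 5.09), higher in 10 of 12 libraries (exact sign-flip permutation test, two-sided, adjusted p = 0.00293). The share with more than 3 inserted bases averaged 60.3% for members and 34.3% for inserted coding joins (higher in 11 of 12, exact permutation, adjusted p = 0.0013). Among the remaining members and joins alone, the median averaged 2.60 bp for members and 2.60 bp for coding joins, over libraries with at least 10 of each. In the same restriction, insertions over 3 bp made up 35.5% of members and 34.2% of inserted coding joins. The bases inserted in insertions of up to 10 bp were 52.4% G or C in all members and 66.9% in coding joins (lower in 11 of 12, exact permutation, adjusted p = 0.0013). With ordinary prey alone the values were 60.2% for members and 67.3% for coding joins.

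The share of dispersed joins with inserted bases was 30.2%, 36.1% and 36.7% in CtIP A/A DNA-PKcs -/- (G2 replicates 1 and 2, then G1) and 42.4%, 43.8% and 50.3% in DNA-PKcs -/-, against 47.5%, 30.5% and 50.2% in CtIP A/A and 36.2%, 46.0% and 46.8% in wild type. Libraries with and without DNA-PKcs overlapped. Averaged over matched strata, the share was 40.8% without DNA-PKcs and 44.3% with it, 39.8% in CtIP A/A and 45.3% in CtIP wild type, and 39.1% in G2 and 46.0% in G1.

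The other 5 measures (median length, share over 3 bp, G and C content, bait deletion over 20 bp, position inside a protein-coding gene) were tested over libraries for DNA-PKcs, CtIP, phase and the CtIP by DNA-PKcs interaction. None passed at an adjusted 0.05, and only inside-gene position in the DNA-PKcs contrast had an unadjusted p under 0.05. The design allowed little: with 144 arrangements the smallest p is 0.0139, and a single measure at that value has an adjusted p of 0.0833.

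That 1 measure was the share of members inside protein-coding genes. It was 40%, 31.9% and 40.2% in CtIP A/A DNA-PKcs -/- and 31.5%, 34.5% and 38.1% in DNA-PKcs -/-, against 46.4%, 50.98% and 49.6% in CtIP A/A and 50%, 35% and 52.4% in wild type. All libraries with DNA-PKcs lay above those without it except wild-type G2 replicate 2. The difference was -11.5 percentage points (95% interval -18.5 to -3.55, exact permutation p = 0.0139, adjusted p = 0.0833). Telomere-like prey, which was in genes in 33.5% of cases, moved with the same contrast. With ordinary prey alone, the share averaged 44.3% over libraries without DNA-PKcs (25% to 55.2%) and 53.0% over those with it (25% to 66.7%). The part of telomere-like prey in the difference was not itself tested. Among the remaining members, 361 lay in introns, 92 in exons and 338 outside protein-coding genes, and 130 lay within 2 kb of a transcription start. They faced the plus strand in 411 cases and the minus strand in 380.

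For CtIP, the share inside genes averaged 43.6% in CtIP A/A and 41.5% in CtIP wild type over matched strata, a difference of 2.11 percentage points (95% interval -3.02 to 11.4, exact permutation p = 0.403, adjusted p = 0.778). Inserted bases were 54.4% G or C in CtIP A/A and 50.4% in CtIP wild type (difference 3.99 points, 95% interval -8.08 to 12.6, exact permutation p = 0.403, adjusted p = 0.778). Between phases, the share inside genes averaged 40.03% in G2 and 45.1% in G1, a difference of -5.04 points (95% interval -13.1 to 2.34, exact permutation over 81 arrangements, p = 0.148, adjusted p = 0.444).

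Restricted to ordinary genome prey, the insertion share looked different. It was 12.4% (30 of 241), 16.8% (49 of 292) and 13.0% (96 of 739) in CtIP A/A DNA-PKcs -/- and 14.5% (12 of 83), 12.1% (8 of 66) and 15.3% (29 of 190) in DNA-PKcs -/-. In cells with DNA-PKcs it was 20.3% (12 of 59), 12.4% (15 of 121) and 38.5% (74 of 192) in CtIP A/A and 28.4% (23 of 81), 9.52% (4 of 42) and 37.6% (439 of 1168) in wild type. The 6 libraries without DNA-PKcs kept within 12.1% to 16.8%, and those with it spread from 9.52% to 38.5%. With DNA-PKcs present, both second G2 replicates were at the low end and both G1 libraries at the high end. The 95% Wilson interval of CtIP A/A DNA-PKcs -/- G1 was 10.8% to 15.6% and that of wild-type G1 was 34.9% to 40.4%. Such intervals cover counting error only. The classes taken out were partly called on inserted bases, which joins without insertions lack. Libraries without DNA-PKcs held 705 of 738 telomere-like members, and libraries with it held 43 of 48 partner-end members. The effect of this on the shares was not tested.

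The prey break of these members often lay beside a recombination-signal motif. A break was scored when CAC opened within 5 bp inside the prey (the signal side) or its complement GTG ended within 5 bp outside it (the coding side), both read along the joined strand and able to overlap. Over every 10000th base of the assembled chromosomes other than 6, 16.1% of 250111 positions met this, with 8.45% for coding-side and 8.46% for signal-side matches. Of members with DNA-PKcs absent, 63 of 220 (28.6%) had the motif, against 385 of 567 (67.9%) with DNA-PKcs present. Joins of ordinary prey without inserted bases had the same order, with 392 of 1377 (28.5%) and 552 of 1091 (50.6%). The whole heptamer, CACAGTG, stood there in 2 of 220 and 78 of 567 members, against 0.151% of genome positions.

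By library, the motif was found in 30%, 21.3% and 33.7% of remaining members in CtIP A/A DNA-PKcs -/- and in 25%, 50% and 17.9% in DNA-PKcs -/-. In CtIP A/A it was found in 58.3%, 73.3% and 62.2%, and in wild type in 78.3%, 25% and 68.8%. The wild-type value of 25% rests on 4 members and the DNA-PKcs -/- value of 50% on 8. Apart from those small libraries, every library with DNA-PKcs lay above every library without it. Wild-type G1 supplied 439 of the 567 members with DNA-PKcs, and without it 83 of 128 (64.8%) had the motif.

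**Figure D3:**
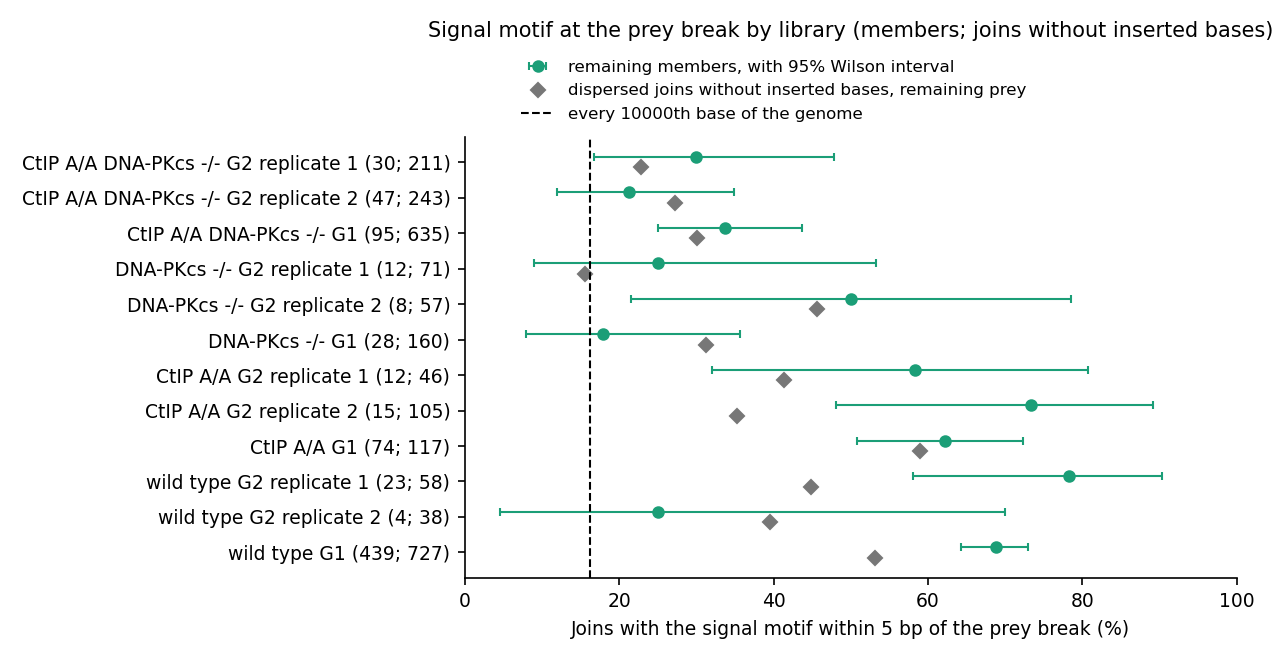
Share of joins with the recombination-signal motif within 5 bp of the prey break (x axis, %), by library. Circles are remaining members with 95% Wilson intervals, diamonds are joins with ordinary prey and no inserted bases, the dashed line is the genome share of 16.1%, and numbers in brackets count members and joins; circles lie at 58.3% to 78.3% for 5 of the 6 libraries with DNA-PKcs.

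With DNA-PKcs present, the motif stood mainly on the coding side of members. With DNA-PKcs absent, the coding side had it in 13.6% and the signal side in 15.5% of remaining members. In cells with DNA-PKcs, it was 54.7% for the coding and 21.3% for the signal side. Joins without inserted bases had 8.21% (coding) and 21.3% (signal) without DNA-PKcs, against 30.4% (coding) and 24.2% (signal) with it. Where bait and prey alignments overlapped in these joins, the shared bases counted as prey. At the break itself, with no base between, GTG stood outside the prey in 113 of 567 members with DNA-PKcs (19.9%), and the share fell off with distance to 7.05% at 5 bp and 3.88% at 10 bp.

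**Figure D4:**
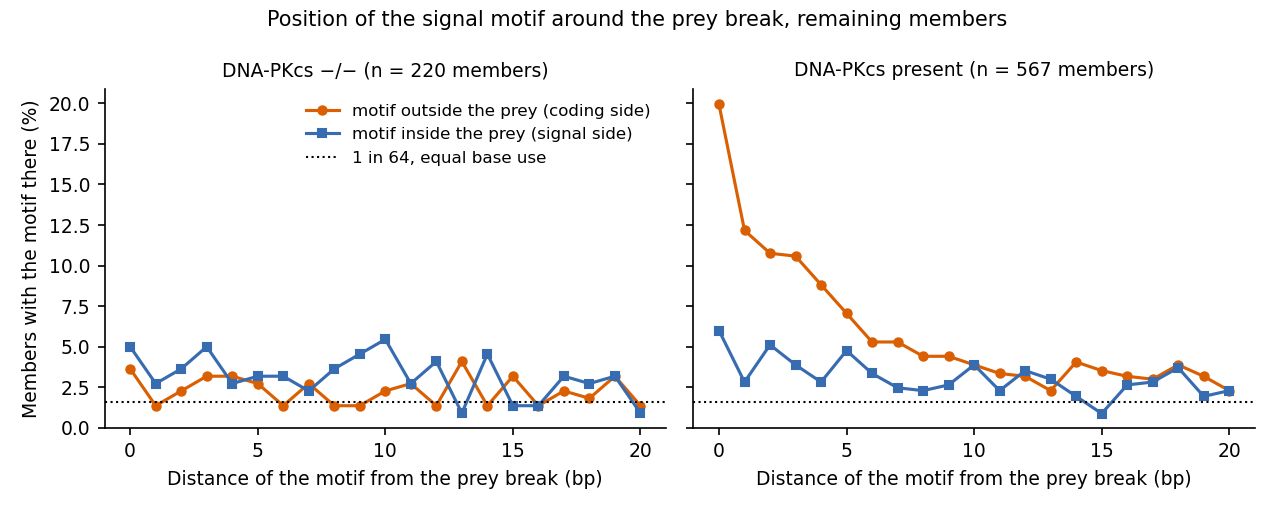
Share of remaining members (y axis, %) with the motif at each distance from the prey break in bp (x axis), for libraries without DNA-PKcs (left, n = 220) and with it (right, n = 567). Orange is the coding side, blue the signal side, and the dotted line the share at equal base use; only the coding side with DNA-PKcs present stands clear of the rest near the break, at 19.9% for distance 0.

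The share of joins with inserted bases was also counted by the side of the motif, as a description pooled over libraries. With DNA-PKcs absent, the counts were 29 of 128 joins with the motif on the coding side alone (22.7%), 33 of 312 with it on the signal side alone (10.6%) and 157 of 1142 with neither (13.7%). With DNA-PKcs present, they were 264 of 552 on the coding side (47.8%), 75 of 295 on the signal side (25.4%) and 182 of 721 with neither (25.2%). Wild-type G1 gave 204 of those 264. Without it, the libraries with DNA-PKcs had 60 of 143 (42.0%), 14 of 85 (16.5%) and 45 of 243 (18.5%). The share was higher for the coding than for the signal side in these pools and in 9 of 12 single libraries, many of them with fewer than 10 inserted joins of a kind. Among all dispersed junctions, 2520 had overlapping bait and prey alignments, all of them joins without inserted bases. A motif in the overlap counted as inside the prey, which can lower the coding-side count of those joins alone. How far this moved the shares was not tested.

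Positions with at least 2 members and the motif within 5 bp give the sequence context. The lines hold 20 bases on either side of the break, in the direction of the join, with GTG or CAC in capitals (mm10, read from GRCm38). They were picked after the values were seen, as the positions found in 2 libraries or with a whole heptamer. They lie at chr8:25052038-25052077 (minus) in Plekha2, at chr10:95323440-95323479 (plus) in Cradd, a death-domain adaptor, at chr3:122439660-122439699 (plus) in Bcar3, at chr8:126867704-126867743 (plus) between genes, at chr10:79987060-79987099 (minus) between genes and at chr3:88160991-88161030 (plus) in Mef2d, a transcription factor.
Plekha2: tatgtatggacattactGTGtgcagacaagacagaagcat
Cradd: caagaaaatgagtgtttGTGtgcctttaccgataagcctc
Bcar3: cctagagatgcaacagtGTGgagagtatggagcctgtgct
chromosome 8, between genes: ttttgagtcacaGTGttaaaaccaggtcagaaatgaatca
chromosome 10, between genes: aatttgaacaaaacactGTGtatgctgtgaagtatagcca
Mef2d: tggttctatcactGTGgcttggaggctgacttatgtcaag
The chromosome 10 and Mef2d lines read CACTGTG, the reverse complement of the whole heptamer, ending at and 4 bp before the break. The chromosome 8 line reads CACAGTG, the heptamer in the forward direction, so that its GTG faces the break and its CAC lies at the far end. It was not scored as a whole heptamer at the break. In each of these lines the capital letters lie outside the prey.

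Within libraries, the planned comparison of all members with dispersed joins that lacked insertions was made with the 2-letter and telomere-like prey included. Over 12 libraries 19.4% of all members and 29.8% of the other dispersed joins had the motif, a difference of -10.4 percentage points (95% interval -15.5 to -5.11, lower in 11 of 12, exact sign-flip permutation test, adjusted p = 0.00977). The call was lost for CAC exactly at the break (-3.35 points, adjusted p = 0.0781, exact permutation) and against direct joins only (-7.03 points, adjusted p = 0.0859, exact permutation). Of the C-and-T class, 2.42% had the motif. With only ordinary prey on both sides the difference was 10.9 points, with 46.9% of members and 36.0% of other joins. The sign of this comparison therefore depended on which prey classes were let in. No other measure of this comparison passed: members were inside genes in 41.7% and other joins in 46.2% (adjusted p = 0.0781, exact permutation), near transcription starts in 6.66% and 8.80% (adjusted p = 0.0781, exact permutation), and had lost more than 20 bp of bait in 62.5% and 63.3% (adjusted p = 0.777, exact permutation).

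All members together had lost more than 20 bp of bait in 62.5%, against 18.3% of inserted coding joins, a difference of 44.2 percentage points (95% interval 31.8 to 57.1, higher in 12 of 12 libraries, exact permutation, adjusted p = 0.0013). With ordinary prey alone the shares were 29.7% of members and 18.2% of coding joins, and with primer bases at the join left out as well, 26.6% and 18.2%. Few ordinary members lost more than 20 bp of bait when DNA-PKcs was present. The share of remaining members with more than 20 bp of bait lost was 30%, 30.6% and 37.5% in CtIP A/A DNA-PKcs -/- and 58.3%, 25% and 72.4% in DNA-PKcs -/-. It was 8.33%, 26.7% and 8.11% in CtIP A/A and 13.0%, 100% and 12.1% in wild type, the 100% resting on 4 members. Bait loss was counted from the most frequent bait end, which lay 4 bp short of the coding end. The median bait end lay 8 bp before that point without DNA-PKcs and 2 bp beyond it, still short of the coding end, with DNA-PKcs. Joins of ordinary prey without inserted bases had more loss: 52.9% of them exceeded 20 bp, against 20.4% of the remaining members. Bases of an amplification primer (10 or more in a row, within 20 bases of the join) stood at 44 of 791 remaining members, all from the biotinylated primer, and at 382 of 2483 joins without insertion, 352 of them from the nested primer at which the reads begin. Without these, loss over 20 bp stood at 16.1% of members and 44.3% of the other joins.

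Insertions at whole coding ends were read for palindromic bases, which are left when a hairpin is opened off its tip. With DNA-PKcs absent, 72 of 224 remaining members kept the bait coding end whole, and 57 of those 72 (79.2%) went on with 3 or more palindromic bases. With DNA-PKcs present, 132 of 567 kept it whole and 20 of 132 (15.2%) had 3 or more. For 5 or more palindromic bases the counts were 30 of 72 and 4 of 132. The first 2 palindromic bases are the same as the first bases of the heptamer, so 3 palindromic bases rest on 1 informative base and 5 on 3.

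The palindromic members without DNA-PKcs came from CtIP A/A cells in 54 of 57 cases, and so did 67 of the 72 whole ends. In CtIP A/A DNA-PKcs -/-, the whole coding end was kept by 14 of 30, 8 of 49 and 45 of 96 members, with 11, 4 and 39 of them palindromic over 3 or more bases. In DNA-PKcs -/- with wild-type CtIP it was kept by 1 of 12, 1 of 8 and 3 of 29, with 1, 0 and 2 palindromic. The 57 members comprised 55 distinct joins at 55 places. In coding joins of the substrate, 61 of 231 whole bait ends were palindromic over 3 bases in CtIP A/A DNA-PKcs -/- (26.4%) and 43 of 189 in DNA-PKcs -/- (22.8%). In cells with DNA-PKcs, 33 of 502 were (6.57%). These coding joins were counted with or without inserted bases, whereas every member had an insertion. Their shares therefore cannot be set directly against those of the members.

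**Figure D5:**
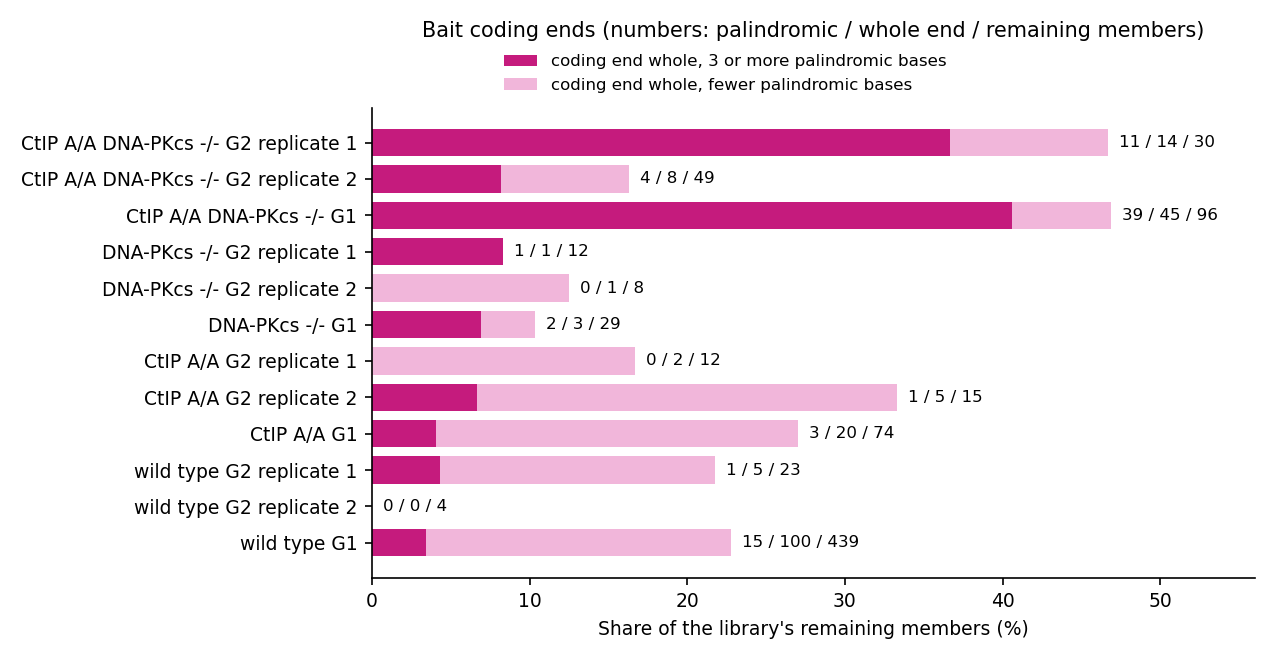
Share of each library's remaining members (x axis, %) whose bait coding end was whole, split by whether 3 or more palindromic bases followed. The numbers give palindromic members, members with a whole end and all remaining members; CtIP A/A DNA-PKcs -/- G1 (39 of 45 of 96) and G2 replicate 1 (11 of 14 of 30) stand out, while wild-type G1 has 15 of 100 of 439.

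The make-up of the inserted bases was set beside this. In remaining members with insertions of up to 10 bp, 30.03% of 616 inserted bases were A and 27.4% were C without DNA-PKcs, against 19.7% A and 38.5% C of 1497 inserted bases with it. G and C together made up 53.8%, 54.4% and 52.1% in CtIP A/A DNA-PKcs -/- and 53.6%, 42.9% and 55.95% in DNA-PKcs -/-. They made up 75.9%, 64.1% and 72.2% in CtIP A/A and 58.3%, 71.4% and 61.8% in wild type. No library without DNA-PKcs reached the level of one with it, although 4 of the 12 values rest on 7 to 29 inserted bases.

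Antigen receptor loci held 72 of the 2386 members and 64 of the 791 with ordinary prey. Igh, on chromosome 12, had 55 members in 9 libraries, 48 of them with ordinary prey, 28 of these from wild-type G1 and 12 from libraries without DNA-PKcs. Of the 48, 31 had the signal motif. Igl had 11 members, Tcrg 5 and the Tcra/Tcrd locus 1. Leaving these loci out, the motif stood at 26.4% of members without DNA-PKcs and 67.5% of those with it. Of 11 genes on a chosen list of partner genes, Notch1, Pax5 and Bcl2 had 1 member each. Myc, Pvt1, Ccnd1, Bcl6, Mycn and Abl1 had 0 of 2386, which allows a share of up to 0.126% by counting error. That limit pools all libraries, and 1595 of the members lay outside the ordinary class. For the 791 members with ordinary prey alone the limit is higher. Ccnd2 and Cd4, like the Igk and Tcrb loci, lie on chromosome 6 and were left out by the selection.

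Ordinary members of wild-type G1 gathered at a few places. Windows of 200 kb with at least 10 ordinary members outside receptor loci numbered 8, and wild-type G1 was the main source in 7 of them, with 105 of its 439 members. Wild-type G1 held 439 of all 791 ordinary members, and CtIP A/A DNA-PKcs -/- G1 came next with 96. A window picked by pooled count therefore favoured wild-type G1, and its lead does not set that library apart from the others. On chr3:88143819-88177338, at Mef2d, all 22 members were from wild-type G1, all faced the plus strand, and 18 had the motif. On chr11:118113707-118199327, over Cyth1, which encodes an exchange factor for ARF GTPases, and Dnah17, an axonemal dynein chain, 17 members ran 9 to the plus and 8 to the minus strand.

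On chr11:87614564-87756492, near Rnf43, Supt4a, Hsf5 and Mtmr4, all 16 members had the motif and 13 faced the minus strand. On chr17:29433926-29511973, at the kinase gene Pim1, there were 12 members, and on chr8:126849702-126875911, outside protein-coding genes, 10 members that all faced the plus strand. On chr11:119107737-119134060, also outside protein-coding genes, 7 of 10 members were from wild-type G1. Repeated positions were few, with 20 positions for 22 members at Mef2d and 15 for 16 near Rnf43. With or without inserted bases, the joins numbered 41 at Mef2d, 36 over Cyth1, 27 near Rnf43 and 21 at Pim1. Joins without inserted bases thus lay in the same windows, and the gathering was not particular to members. Outside these windows and the receptor loci, 207 of 303 wild-type G1 members (68.3%) still had the motif.

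A further window, chr2:98662282-98667262 at the predicted genes Gm10800 and Gm10801, was different. Its 14 members came from 7 libraries, 5 of them from CtIP A/A DNA-PKcs -/- G1, 4 had the motif, and 9 had lost more than 20 bp of bait. The prey there had a median of 2.5 exact genome copies, so their position is uncertain.

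Bins of 1 Mb, ranked by their mean share of a library's members, were mostly filled by the classes other than ordinary prey. The first, chr1:171000001-172000000, had 33 members in 8 libraries, 32 of them of the C-and-T class at 8 positions. The second, on chromosome 13, had 28 telomere-like members among 32, at only 2 positions, and all 32 came from libraries without DNA-PKcs. Of the 10 highest bins, 1 was led by ordinary prey: chr12:115000001-116000000, in the Igh variable region, with 26 of 27. Among the 10 protein-coding genes found in most libraries, Map3k5, the stress kinase ASK1, had 26 C-and-T members of 27, and Plekha6 had 25 telomere-like members of 25. Nr2e1, Hook1 and Tecpr2 had only C-and-T prey, Lama1, Pard3b and Gm47283 only telomere-like prey, Col23a1 had 8 telomere-like members of 10, and Gm10800 had 12 of ordinary prey.

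The 12 insertions over 20 bp in members with ordinary prey or a partner-end segment were searched in the assembly, and 2 of the 12 had an exact copy. The first, of 24 bp in CtIP A/A DNA-PKcs -/- G2 replicate 1, equalled chr8:117483969-117483992 (minus), and its prey began 18 bases further along the same strand. It is shown because the insertion and the opening 40 bases of the prey at chr8:117483911-117483950 (minus) come from 1 place.
CtIP A/A DNA-PKcs -/- G2 replicate 1, 24 bp inserted: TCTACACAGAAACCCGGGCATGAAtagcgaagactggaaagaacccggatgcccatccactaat
The second, of 22 bp in wild-type G1, was rich in G and T and matched both chromosome 1 and chromosome 2.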

How the data were processed

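Per the file headers, every line of the deposited tables is 1 junction with the positions of bait and prey, their places on the read and the read itself. The deposited values are therefore positions and sequences with no normalization, in no standard unit. Per the submitters' processing notes, Bowtie2 and mm10 were used, and per the labels' protocols the substrate was added to mm10 as an extra chromosome. How junctions were called, filtered and freed of duplicates is not given in the sources used here. Depth was 289 to 7068 junctions per library. Sequencing run, from the read names, was 1 for every G2 replicate 1 and 2 for every other library.

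Analyses ran under scipy 1.17.1, pandas 2.3.3 and numpy 2.4.6 (Python 3.11.15), with figures by matplotlib. Genes came from GENCODE M21 and bases from GRCm38, to which 98.4% of bases marked as matching were equal. Effects are differences averaged over strata and tested by exact permutation of labels within strata, two-sided. Members were set against other joins of the same library by exact sign flips over libraries with at least 10 of each. Adjusted p-values are Benjamini-Hochberg over the 6 or 4 measures of a comparison. Shares carry 95% Wilson intervals, which cover counting error only because reads were amplified with no molecular identifiers. The tests were checked on simulated data.

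Named loci were the 10 bins of 1 Mb ranked first by mean share of members among those seen in 3 or more libraries, the 10 protein-coding genes with members in most libraries, and a list of partner genes. Members, lists and measures were chosen with earlier results of these data known, and the prey classes, palindrome counts, coding and signal sides, 200 kb windows and primer counts after seeing the values. Identical lines, receptor loci, prey length, the insertion limit, each library, each run and the replicate block were tried as alternatives. Some loci and sequences that these rules select are not reported here.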

Additional observations from a re-analysis of the deposited data

How the results depend on the processing

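Of 32 results, 5 passed the threshold, all of them within-library comparisons, and 780 of 805 alternative values kept the side of the threshold. For the genotype results this says little, since the smallest possible adjusted p of a lone measure is 0.0833; 82 of the values with no call in either setting had the opposite sign. In percentage points unless given in bp, and as members minus other dispersed joins, the CAC difference was -3.35 for CAC exactly at the break, -7.03 against direct joins only and -0.0792 without pyrimidine and purine prey, and the call was lost in each. It turned to 10.9 with only ordinary prey on both sides, 9.57 with receptor loci left out too and 13.9 with primer bases left out too. These last 4 alternatives were chosen after seeing the data. So was a further alternative, without telomere-like prey, which is not among the changed calls listed here. The bait-deletion difference, not called before, became -20.4, -29.6, -27.8 and -25.0 under the same 4 alternatives. The difference near transcription starts was -2.77 with insertions of 2 bp or more and -2.66 to -1.75 when single libraries were left out, passing without CtIP A/A G2 replicate 2 or wild-type G1. That inside genes was -5.82 to -3.54, passing without wild-type G2 replicate 1. Against inserted coding joins, the median length difference lost its call at 0.818, 0, 0.0556 and 0.05 bp under these 4 alternatives. That of insertions over 3 bp lost it at 13.0, 1.30, 4.49 and 0.393. The G and C difference became -7.08 with ordinary prey and -5.71 without primer bases, and the bait-deletion difference 8.43 without primer bases. No other call changed when single libraries were left out. With the replicate block, the DNA-PKcs effect inside genes was -11.5 with exact permutation p = 0.0313 (adjusted 0.188), and no call changed; the replicate numbers coincide with the runs, while the labels do not pair them. Single-run tests of genotype have too few arrangements to pass. Small libraries limit the ordinary members, with 4 in wild-type G2 replicate 2 and 8 in DNA-PKcs -/- G2 replicate 2.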
